A study of Mus musculus with 2 samples.

Results

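The Chd genes encode chromodomain helicase DNA-binding proteins, a family of 9 chromatin remodellers that use ATP to slide, eject or space nucleosomes. All 9 members, Chd1 to Chd9, were found by symbol among the 28001 features of both count matrices, 1 feature each, and all 9 are described. They were chosen by name, and Chd3 and Chd5 were already known to lie among the genes furthest above the wild-type level in the knockout library, so every knockout over wild-type value below is a description that supports nothing on its own.

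The measurements were single-cell RNA sequencing counts from the forebrain (lateral and dorsal cortex with the hippocampus) of C57BL/6J mice on postnatal day 0. One library came from Gmnc-/- animals and 1 from wild-type littermates, and each pooled 4 animals of 2 litters, so neither genotype has a replicate library. Gmnc (GemC1) is a geminin relative needed, with Trp73, to make multiciliated cells, and the title of the series sets p73-bearing Cajal-Retzius neurons and Reelin beside the shaping of the cortex. The labels give no allele other than Gmnc-/-, and they do not say in which cells the gene acts or how much of it was deleted.

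Every member encodes a large protein with paired chromodomains, which bind histone tails, and a helicase-like motor. Chd1 and Chd2 (subfamily I) carry a separate DNA-binding domain and travel with transcribing RNA polymerase. Chd3, Chd4 and Chd5 (subfamily II) are alternative motor subunits of NuRD, a complex that joins remodelling to histone deacetylation. In the developing mouse cortex these motors are known to take turns, with Chd4 linked to progenitor division and Chd3 and Chd5 to migrating and maturing neurons. Chd6 to Chd9 (subfamily III) carry BRK domains, and Chd7 and Chd8 are the best known of them, through CHARGE syndrome and autism in people.

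The libraries were unequal in size and in how cells passed quality control. The knockout library held 155482657 unique molecules (UMIs) in 27663 barcodes and the wild-type library 88905819 UMIs in 13033 barcodes. After filtering, 20131 knockout and 10452 wild-type cells were kept, with a median of 4431 and 5992.5 UMIs per cell, and 50 kept barcodes were shared by the libraries. Doublet calls removed 23.1% of the knockout cells and 4.44% of the wild-type cells that had passed the filter. The median mitochondrial share over all barcodes was 1.21% in the knockout and 3.29% in the wild-type library. Neurod6, a marker of forebrain excitatory neurons, was present in both libraries, at 172 CPM in the knockout and 151 CPM in the wild-type library. Gmnc gave 0.755 CPM (0.595 to 0.945) in the knockout and 0.817 CPM (0.629 to 1.04) in the wild-type library. These tags lie near the 3′ end of the transcript and check nothing about the allele, since the deleted part is not given. The feature Stop-Ai9, a reporter sequence that the labels do not mention, gave 198 CPM in the knockout and 568 CPM in the wild-type library.

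Levels are given as counts scaled by library depth (CPM), the UMIs of a gene summed over all cells of a class in a library, divided by the summed UMIs of those cells and scaled to a common total. Ranges in parentheses after a value are 95% intervals. They cover counting error only, not differences between animals, dissections or libraries, and amplified molecules are not fully independent. Because tags were counted near the 3′ end and capture differs between transcripts, levels in CPM were compared for the same gene across classes and libraries, not between genes. With 1 library per genotype no test was made, no p-value exists, and each knockout over wild-type ratio compares these 2 libraries and cannot be told apart from other differences between them. Cell classes carry the ending "-like" because they were rebuilt from clusters and marker lists. The classes used most were astroglia-like cells (3254 knockout and 1689 wild-type cells, radial glia and astrocytes together), intermediate progenitor-like cells (1183 and 540), excitatory neuron-like cells (5449 and 2417), interneuron-like cells (5043 and 2443), striatal projection neuron-like cells (939 and 460) and oligodendrocyte lineage-like cells (1112 and 521).

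Within each library the Chd genes fell into 2 kinds of pattern. Chd3, Chd5 and Chd7 differed several-fold between excitatory neuron-like and astroglia-like cells. Chd1, Chd2, Chd4, Chd6, Chd8 and Chd9 stayed within 1.5-fold between these classes taken whole, though not all did in the maturing excitatory-like stage given below. In excitatory neuron-like over astroglia-like cells of the knockout library, 2 of 9 members (Chd3 and Chd5) were at least 1.5-fold higher and 1 (Chd7) was at least 1.5-fold lower, where 20.4% of the 7762 genes at 20 CPM or more were that much higher and 23.8% that much lower. The wild-type library gave the same 3 members, beside 23.0% of 7589 genes higher and 23.3% lower. The members' counts are near these shares, so the counts are no result about the family.

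**Figure D1:**
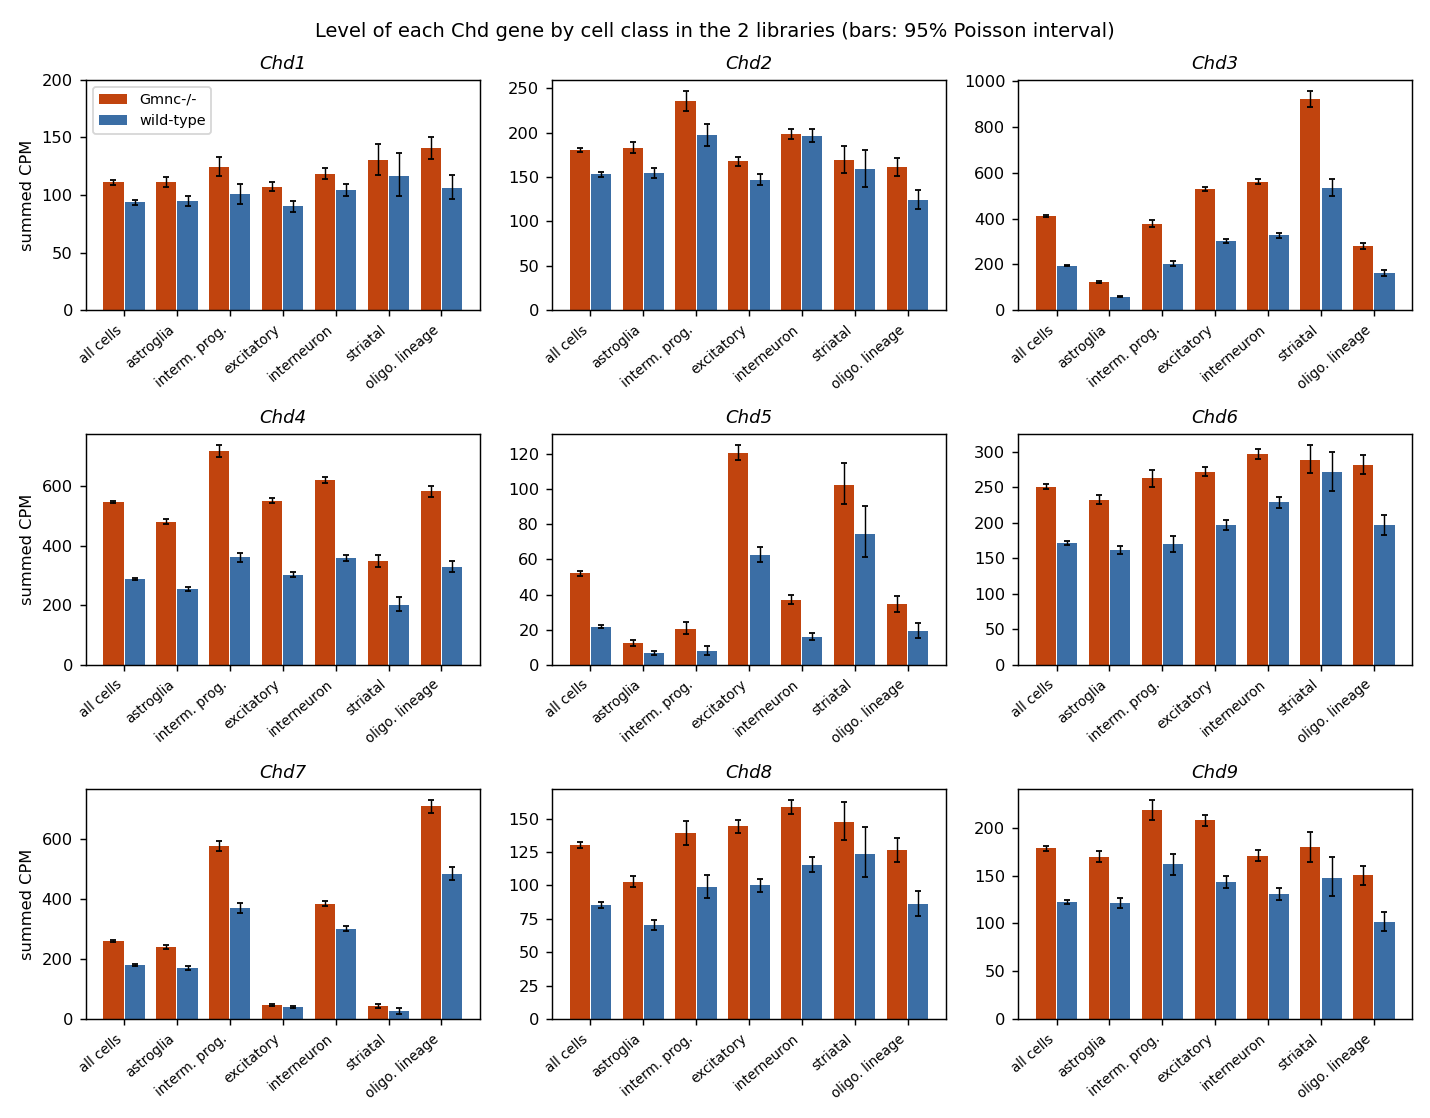
Level of each Chd gene (summed CPM, linear axis from 0) over all cells and in 6 neural classes, with the knockout bar left of the wild-type bar and 95% Poisson intervals for counting error as whiskers. Chd3 is highest in striatal projection neuron-like cells, Chd5 in excitatory and striatal projection neuron-like cells, and Chd7 in oligodendrocyte lineage-like cells.

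Chd3 (chr11:69343273-69369406, minus strand, mm10, ENSMUSG00000018474), a NuRD motor that is altered in a human developmental syndrome with speech delay, was highest in neuronal classes. It stood at 922 CPM (888 to 958) in knockout and 535 CPM (498 to 575) in wild-type striatal projection neuron-like cells. Interneuron-like cells followed with 562 CPM in the knockout and 326 CPM in the wild-type library, and excitatory neuron-like cells with 530.1 and 303 CPM. These 3 neuronal classes held the top of the order in both libraries, and no neighbours among them overlapped in their intervals. The interneuron-like class includes cycling cells, which had 449 CPM in the knockout and 272 CPM in the wild-type library. Intermediate progenitor-like cells (377 and 203 CPM) and meningeal fibroblast-like cells (303 and 179 CPM) came next. Astroglia-like cells had 122 CPM (117 to 126) in the knockout and 59.2 CPM (55.7 to 62.9) in the wild-type library. The excitatory over astroglia ratio was 4.36 (4.18 to 4.55) in the knockout library and 5.11 (4.78 to 5.47) in the wild-type library. Chd3 was lowest in microglia-like cells of the knockout library, at 59.6 CPM (49.3 to 71.3), and in erythroid-like cells of the wild-type library, at 17.8 CPM (12.4 to 24.8). Erythroid-like cells of the knockout library stood at 111 CPM (98.3 to 125), which overlaps the astroglia value of that library, so the low end of the order is not resolved there.

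Chd5 (chr4:152338651-152390194, plus strand; ENSMUSG00000005045), a NuRD motor best known from neurons and as a tumour suppressor in neuroblastoma, had the largest ratio of excitatory neurons to astroglia among the members. Excitatory neuron-like cells had 121 CPM (116 to 125) in the knockout and 62.7 CPM (58.8 to 66.8) in the wild-type library, and striatal projection neuron-like cells had 103 CPM (91.3 to 115) and 74.7 CPM (61.1 to 90.5). The order of these 2 classes was excitatory first in the knockout library, and their intervals overlapped in the wild-type library. Interneuron-like cells stood well below them, at 37.0 CPM in the knockout and 15.9 CPM in the wild-type library. Astroglia-like cells had 12.3 CPM (10.9 to 13.9) in the knockout and 6.60 CPM (5.47 to 7.90) in the wild-type library, and endothelial-like cells were the lowest with 3.20 and 1.05 CPM. The excitatory over astroglia ratio was 9.80 in the knockout library and 9.50 in the wild-type library. Erythroid-like cells had 9.73 CPM (6.23 to 14.5) in the knockout and 3.56 CPM (1.43 to 7.34) in the wild-type library. These overlap the astroglia values, so the size of the ratio rests on a level not resolved from erythroid-like cells.

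Chd4 (chr6:125095981-125130591, plus strand; ENSMUSG00000063870), the broadly used NuRD motor, was present in every class. Intermediate progenitor-like cells had 719 CPM (699 to 738) in the knockout and 361 CPM (345 to 377) in the wild-type library, and microglia-like cells had 593 CPM (559 to 628) and 364 CPM (342 to 387). The top 3 classes of the wild-type library, which were microglia, intermediate progenitors and interneurons, overlapped in their intervals. Excitatory neuron-like cells had 552 CPM in the knockout and 303 CPM in the wild-type library, and astroglia-like cells had 481 and 255 CPM, so the log2 ratio between these classes was only 0.19 in the knockout and 0.24 in the wild-type library. Striatal projection neuron-like cells, the class highest in Chd3, were the lowest neural class in Chd4, with 348 CPM (327 to 370) in the knockout and 202 CPM (179 to 227) in the wild-type library.

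The promoters of Chd4 and Chd5 are shown because these genes share the NuRD role and the higher level in the knockout library but differ in cell-type pattern. RefSeq (build GRCm38.p6, plus strand) lists 2 starts for each, and the 250 bases before the more upstream one run as follows, with the E-box letters CANNTG, the core that proneural factors bind, in capitals.
Chd4, chr6:125095731-125095980: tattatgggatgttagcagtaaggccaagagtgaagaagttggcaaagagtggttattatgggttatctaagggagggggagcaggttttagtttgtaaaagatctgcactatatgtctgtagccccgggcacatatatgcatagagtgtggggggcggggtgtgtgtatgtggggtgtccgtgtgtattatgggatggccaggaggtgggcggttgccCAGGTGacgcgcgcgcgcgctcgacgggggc
Chd5, chr4:152338401-152338650: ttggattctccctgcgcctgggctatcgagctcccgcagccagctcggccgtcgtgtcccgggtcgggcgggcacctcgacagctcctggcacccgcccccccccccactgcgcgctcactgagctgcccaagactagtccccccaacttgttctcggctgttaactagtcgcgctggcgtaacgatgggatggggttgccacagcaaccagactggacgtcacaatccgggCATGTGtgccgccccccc

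Both printed windows held CpG pairs above the median of 6 over the 32851 windows of all RefSeq promoters of the same length. Chd4 had 12, more than 66.5% of them, and Chd5 had 21, more than 83.7%. Each held 1 CANNTG match, a motif that reads the same on both strands and was present in 66.2% of all windows, so a match is common. The letters CCAAT, searched on both strands, were in neither printed window and in 33.8% of all windows. The other start gave a different picture for Chd4, with 23 CpG pairs, more than 86.7% of windows, and 1 CCAAT (chr6:125095913-125096162). For Chd5 the other start had 22 CpG pairs and no CCAAT. Promoters were matched for 5 of the 9 members, which were Chd4, Chd5, Chd6, Chd8 and Chd9, and a match or its lack is a description of these letters only.

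Chd7 (chr4:8690406-8867659, plus strand; ENSMUSG00000041235), which is mutated in CHARGE syndrome and acts at enhancers in neural progenitors and oligodendrocyte precursors, ran opposite to Chd3 and Chd5 between progenitors and excitatory neurons. Oligodendrocyte lineage-like cells had 708 CPM (687 to 729) in the knockout and 483 CPM (462 to 505) in the wild-type library, and intermediate progenitor-like cells had 575 and 370 CPM. Interneuron-like cells had 384 CPM in the knockout and 301 CPM in the wild-type library, and astroglia-like cells had 240.4 and 171 CPM. The level was far lower in excitatory neuron-like cells, at 45.9 CPM (43.3 to 48.7) in the knockout and 40.3 CPM (37.2 to 43.6) in the wild-type library, and in striatal projection neuron-like cells, at 43.4 and 25.6 CPM. Erythroid-like cells of the knockout library had 43.8 CPM (35.9 to 52.8), which overlaps both of these knockout values. The excitatory over astroglia ratio was 0.191 in the knockout and 0.236 in the wild-type library. The 3 highest classes kept the same order in both libraries and their intervals did not overlap.

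Oligodendrocyte lineage-like over astroglia-like cells gave 3 members at least 1.5-fold higher in the knockout library, where 11.3% of all genes were. These were Chd7 with a log2 ratio of 1.54, Chd5 with 1.19 and Chd3 with 1.17. The wild-type library gave Chd7 1.48 and Chd3 1.39, beside 11.8% of genes higher, and Chd5 had 1.05 but lay under the 20 CPM filter in it.

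The remaining members were broad. Chd8 (chr14:52198151-52257780, minus strand; ENSMUSG00000053754), a frequent autism gene that binds CTCF, ranged over neural classes between 103 CPM in astroglia-like and 159 CPM in interneuron-like cells of the knockout library, and between 70.3 CPM in astroglia-like and 124 CPM in striatal projection neuron-like cells of the wild-type library. Its excitatory over astroglia log2 ratio of 0.47 in the knockout and 0.48 in the wild-type library was the largest among the members short of 1.5-fold. Chd6 (chr2:160946978-161109075, minus strand; ENSMUSG00000057133), a less studied relative of Chd7, was highest in interneuron-like cells of the knockout library (297 CPM) and in striatal projection neuron-like cells of the wild-type library (272 CPM). In the knockout library the interval of that class overlapped the one of striatal projection neuron-like cells, the next class. In microglia-like cells Chd6 had 88.3 and 58.8 CPM. Chd9 (chr8:90828352-91054516, plus strand; ENSMUSG00000056608), another little studied member, was instead highest in microglia-like cells, at 289 CPM (266 to 314) in the knockout and 181 CPM (166 to 198) in the wild-type library. The wild-type interval overlapped that of intermediate progenitor-like cells (151 to 173), the next class.

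Chd1 (chr17:15704967-15772610, plus strand; ENSMUSG00000023852), which binds histone H3 methylated at promoters, was close to flat. In the knockout library it lay between 107 CPM in excitatory neuron-like and 141 CPM in oligodendrocyte lineage-like cells among neural classes, and in the wild-type library between 90.2 CPM in excitatory neuron-like and 117 CPM in striatal projection neuron-like cells. Neighbours in its order overlapped in all but 1 step of the knockout order and 2 steps of the wild-type order. Chd2 (chr7:73426638-73541830, minus strand; ENSMUSG00000078671), mutated in a childhood epilepsy, was highest in intermediate progenitor-like cells, at 236 CPM in the knockout and 197 CPM in the wild-type library. These intervals overlapped those of the next class, microglia-like cells in the knockout (224 CPM) and interneuron-like cells in the wild-type library (197 CPM). Chd2 was lowest of the neural classes in oligodendrocyte lineage-like cells, at 161 and 124 CPM.

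The patterns of some members were alike over the 11 classes with 50 or more cells in both libraries. As a description over classes that share a library, Chd1 and Chd2 had a Pearson correlation of log2 levels of 0.941 in the knockout and 0.952 in the wild-type library, and Chd2 and Chd9 had 0.942 and 0.946. Erythroid-like cells are among these classes and were by far the lowest for Chd1, Chd2, Chd4 and Chd9 in both libraries. Chd1 had 18.2 CPM there in the knockout and 8.66 CPM in the wild-type library, where the next class up had 89.4 and 53.6 CPM. Such a class can raise a correlation between genes that differ little elsewhere, and its part in these values was not tested. Chd3 and Chd5 had 0.816 and 0.729, and Chd3 and Chd4 only 0.257 and 0.438. Among 6693 other genes, the pattern most like that of Chd3 was that of Dapk1 (0.976 in the knockout and 0.969 in the wild-type library), a kinase linked to cell death, then Rbfox2 (0.964 and 0.963), a splicing factor, and Nbea (0.953 and 0.959), a trafficking protein of neurons. Genes close to Chd4 were Mapre1 (0.979 and 0.979), a microtubule end-binding protein, and Tceb1 (0.990 and 0.974), an elongin subunit. Chd5 was closest to St6gal2 (0.978 and 0.973), a sialyltransferase, then Ksr2 (0.980 and 0.968), a kinase scaffold, and Mapt (0.963 and 0.971), the microtubule protein tau. Chd7 was closest to genes of DNA replication, which were Rrm1 (0.920 and 0.905), Mcm6 (0.935 and 0.905) and Pcna (0.904 and 0.930).

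The excitatory lineage was then split into stages by cycling genes and by markers of young and of maturing neurons. The knockout library held 549 cycling and 2705 non-cycling astroglia-like cells, 544 cycling and 639 non-cycling intermediate progenitor-like cells, and 4922 young and 527 maturing excitatory-like cells, and the wild-type library 324, 1365, 264, 276, 2023 and 394. Chd3 was already high in intermediate progenitors. In the knockout library it had 122 CPM in both astroglia stages, 306 CPM in cycling and 455 CPM in non-cycling intermediate progenitors, 542 CPM in young and 468 CPM in maturing excitatory-like cells. In the wild-type library it had 62.7, 57.8, 168, 249.6, 318 and 266 CPM in the same order. Both libraries thus gave the highest value in young excitatory-like cells.

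Chd5 was late. The knockout library gave 9.28 and 13.3 CPM in cycling and non-cycling astroglia-like cells, 16.7 and 24.6 CPM in cycling and non-cycling intermediate progenitors, and 113 and 164 CPM in young and maturing excitatory-like cells. The wild-type library gave 6.00, 6.84, 6.67, 9.72, 55.3 and 81.0 CPM. From non-cycling intermediate progenitors to young neurons it was the member furthest on the higher side, with a log2 ratio of 1.99 in the knockout and 2.03 in the wild-type library, where 10.9% and 14.4% of all genes were at least 1.5-fold higher. Interneuron-like cells had the same direction, with a non-cycling over cycling log2 ratio of 1.74 in the knockout library, where 11.6% of genes were that much higher. In the wild-type library the value was 1.78, with Chd5 under the 20 CPM filter, beside 14.6% of genes. The sizes of these ratios rest on low levels. Wild-type non-cycling intermediate progenitors held 22 UMIs of Chd5. Cycling interneuron-like cells had 11.9 CPM in the knockout and 4.22 CPM in the wild-type library. Both lie inside the intervals of erythroid-like cells of the same library (6.23 to 14.5 and 1.43 to 7.34).

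Chd7 went the other way at the same step. In the knockout library it had 319 and 215 CPM in cycling and non-cycling astroglia-like cells, 643 and 499.6 CPM in cycling and non-cycling intermediate progenitors, and 50.3 and 22.1 CPM in young and maturing excitatory-like cells. In the wild-type library it had 221, 151, 385, 349, 45.6 and 27.2 CPM. Young excitatory over non-cycling intermediate progenitor cells had a log2 ratio of -3.19 in the knockout and -2.81 in the wild-type library, and Chd7 was the 1 member at least 1.5-fold lower, beside 11.1% and 11.7% of genes. Cycling astroglia-like cells had more Chd7 than non-cycling ones, with a log2 ratio of 0.56 in the knockout and 0.53 in the wild-type library, short of 1.5-fold, where 11.5% and 10.4% of genes were that much higher.

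Chd4 peaked in non-cycling intermediate progenitors. It had 564, 455, 611, 838, 606 and 258 CPM in the knockout library, from cycling astroglia to maturing excitatory-like cells, and 286, 243, 307, 432, 360.4 and 163 CPM in the wild-type library. Its lowest stage was the maturing neuron in both libraries.

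Most members were lower in maturing than in young excitatory-like cells. In the knockout library 6 of 9 members were at least 1.5-fold lower in maturing cells, where 17.9% of all genes were, and none was that much higher, where 13.6% of genes were. In the wild-type library 7 of 9 were lower, beside 19.2% of genes, and none higher, beside 14.3%. The median log2 ratio of the 9 members was -0.85 in the knockout and -0.67 in the wild-type library, where that of all genes was -0.17 and -0.13. Chd4 had -1.21 in the knockout and -1.12 in the wild-type library, Chd6 -0.97 and -1.11, and Chd7 -1.03 and -0.65. Chd9 had -0.89 and -0.83, Chd2 -0.85 and -1.20, and Chd8 -0.75 and -0.60. Chd1 had -0.67 in the wild-type library and, short of 1.5-fold, -0.37 in the knockout library. Chd3 and Chd5 were the exceptions in both libraries, with -0.21 and -0.26 for Chd3 and 0.52 and 0.51 for Chd5. The NuRD partners also gave 6 of 12 genes at least 1.5-fold lower in maturing cells of each library and none higher, with a median log2 ratio of -0.59 in the knockout and -0.60 in the wild-type library. Set against non-cycling astroglia-like cells instead, maturing cells had log2 ratios for Chd2 of -0.88 in the knockout and -1.02 in the wild-type library. Chd4 had -0.80 and -0.57, Chd6 -0.61 and -0.56, and Chd9 -0.57 and -0.49. Chd1 had -0.33 and -0.53, and Chd8 -0.135 and 0.11. The median of all genes was -0.17 and -0.09.

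**Figure D2:**
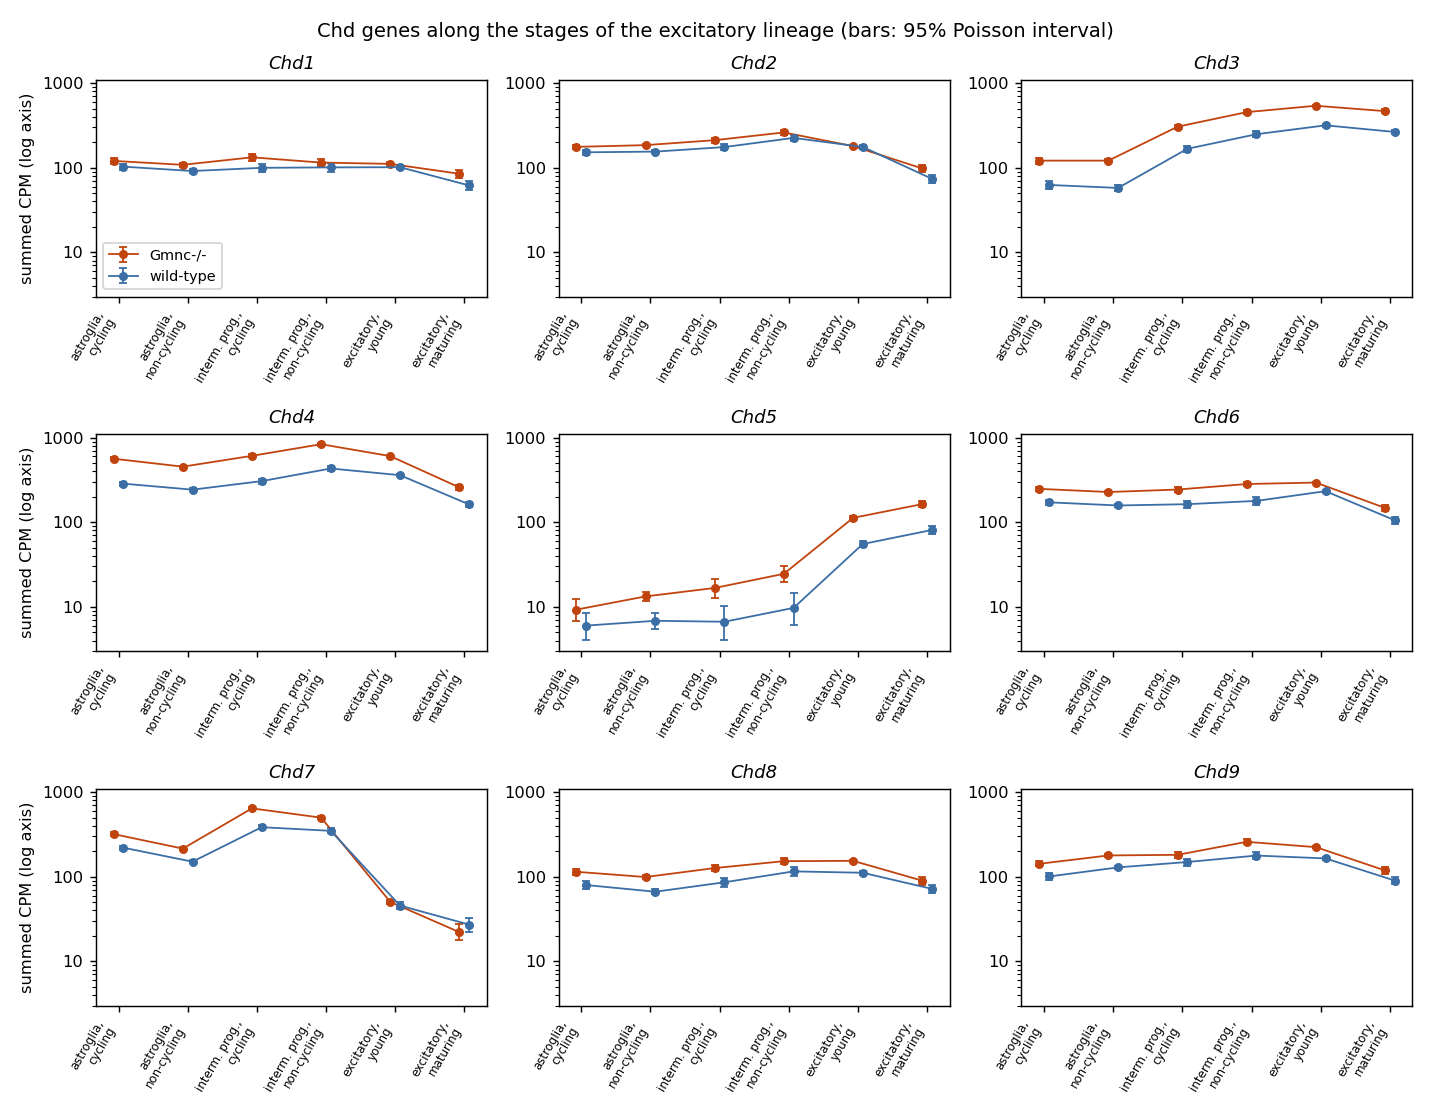
Level of each Chd gene (summed CPM, log axis) from cycling astroglia-like to maturing excitatory-like cells, knockout and wild-type libraries as separate lines, with 95% Poisson intervals as whiskers. Chd5 reaches 164 CPM in knockout and 81.0 CPM in wild-type maturing cells, and Chd7 is down to 22.1 and 27.2 CPM there.

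Shares of the NuRD motor transcripts can be compared within 1 library, free of the scaling between libraries. They describe RNA and not the subunits held by the complex. Of the UMIs of Chd3, Chd4 and Chd5 together, Chd4 made up 78.2% (77.5 to 78.9) in knockout and 79.5% (78.4 to 80.5) in wild-type astroglia-like cells. In maturing excitatory-like cells Chd4 made up 29.0% in the knockout and 31.9% in the wild-type library, Chd3 52.6% and 52.2%, and Chd5 18.4% and 15.9%. Striatal projection neuron-like cells had the highest Chd3 share, with 67.2% (65.7 to 68.6) in the knockout and 65.9% (63.1 to 68.7) in the wild-type library. These shares depend on how well each 3′ end is captured, so only the change of a gene's share between cells is read, not which gene is more abundant.

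These transcript shares moved far more between classes than between libraries. Chd3 made up 44.1% in knockout and 45.3% in wild-type excitatory neuron-like cells, and 46.1% and 46.6% in interneuron-like cells. The intervals of all 3 shares overlapped between the libraries in striatal projection neuron-like and oligodendrocyte lineage-like cells. Over all classes and stages, the intervals of the 2 libraries did not overlap for the share of Chd5 in young excitatory-like cells, at 8.95% (8.61 to 9.30) in the knockout and 7.54% (6.97 to 8.14) in the wild-type library, and in interneuron-like cells, at 3.04% (2.84 to 3.25) and 2.26% (1.97 to 2.59).

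**Figure D3:**
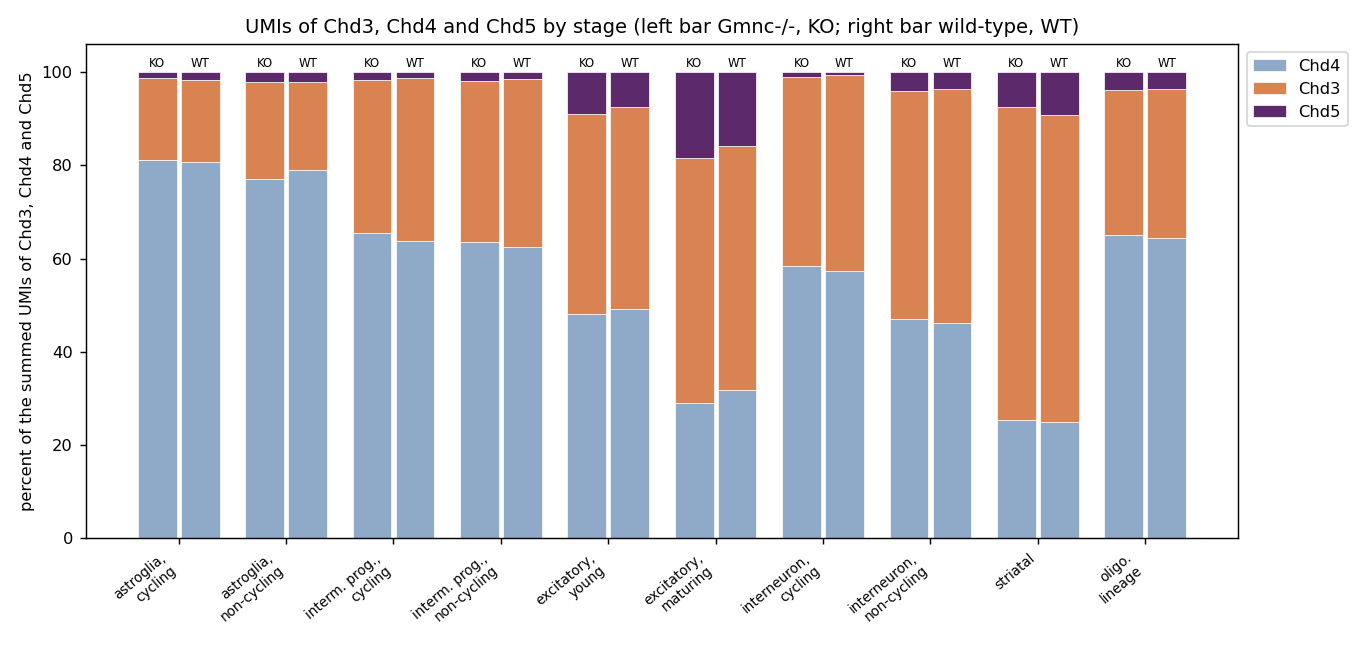
Share of Chd3, Chd4 and Chd5 in their summed UMIs (percent, stacked bars) by stage or class, with the knockout bar left of the wild-type bar. In both libraries the share of Chd4 is higher in astroglia-like stages than in maturing excitatory-like cells, and the share of Chd3 is highest in striatal projection neuron-like cells.

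Between the libraries, all 9 Chd genes were higher in the knockout library over all cells, with intervals above 1. The median log2 ratio of all genes lay on the same side, at 0.13, so the direction alone is no result about the family. The values that brought the members to attention are these. Chd5 had 52.0 CPM in the knockout and 21.6 CPM in the wild-type library, a ratio of 2.40 (2.27 to 2.54). Chd3 had 409.8 and 195 CPM, a ratio of 2.10 (2.06 to 2.14), and Chd4 had 547 and 289 CPM, a ratio of 1.89 (1.86 to 1.92). In log2 ratios with 5 CPM added to both values, Chd5 (1.10) ranked 9th, Chd3 (1.05) 15th and Chd4 (0.91) 38th from the top among 7762 genes.

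Those 3 were the members past 1.5-fold, 3 of 9 higher and none lower, where 5.48% of all genes were at least 1.5-fold higher and 5.55% lower. The comparison helped to choose the members, so nothing is read from that count. The median log2 ratio was 0.54 over the 9 members and 0.13 over all genes. Chd4 (0.91) was the lowest of the members past the threshold, and Chd8 was the member just outside it. Chd8 had 130.02 CPM in the knockout and 85.3 CPM in the wild-type library, a ratio of 1.52 (1.48 to 1.57) that came to a log2 ratio of 0.58 once 5 CPM was added to both values. Chd6 had a ratio of 1.46 (251 and 172 CPM), Chd9 also 1.46 (179 and 122 CPM) and Chd7 1.44 (259 and 179 CPM). Chd1 (111 and 93.8 CPM, ratio 1.19) and Chd2 (181 and 153 CPM, ratio 1.18) were close to the middle of all genes, 0.10 above the median on the log2 scale.

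**Figure D4:**
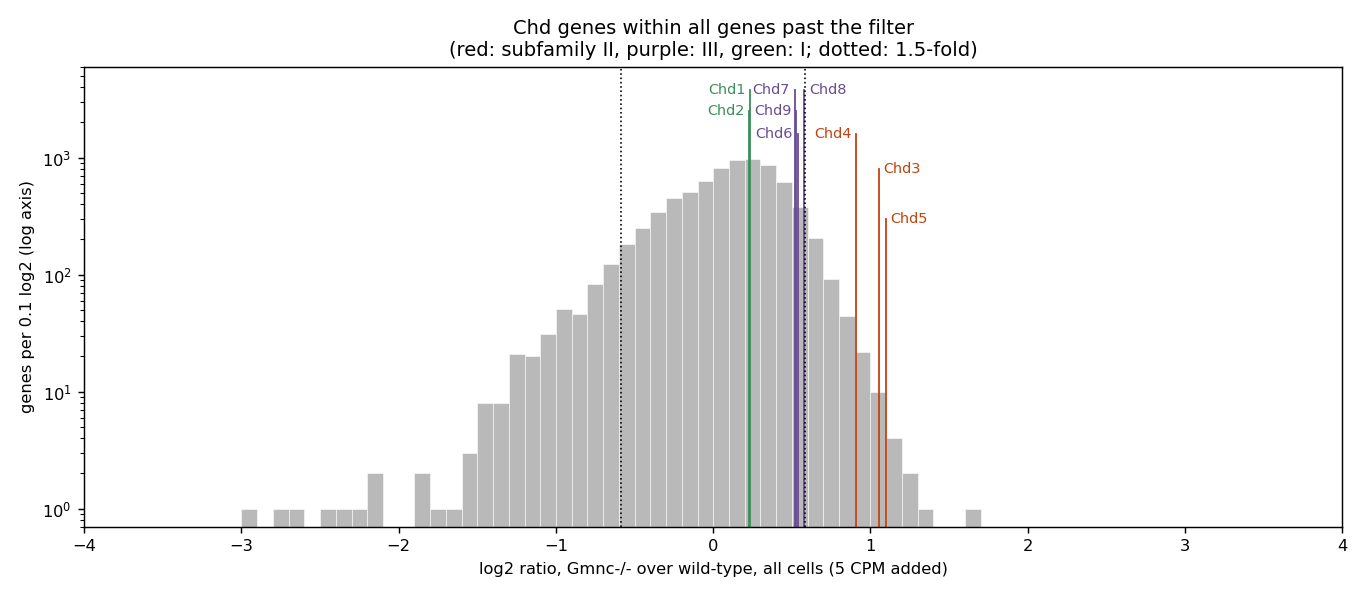
Number of genes (log axis) by log2 ratio of knockout over wild-type over all cells, for the 7762 genes at 20 CPM or more, with each Chd gene marked by a line. Chd5, Chd3 and Chd4 lie past the dotted 1.5-fold line on the right, Chd6 to Chd9 just short of it, and Chd1 and Chd2 near the middle.

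With the processing used here, Chd3 and Chd4 passed 1.5-fold in each of the 6 neural classes. In oligodendrocyte lineage-like cells both fell short of it under some alternative processing. The level of Chd3 in knockout astroglia-like cells overlaps that in knockout erythroid-like cells. Excitatory neuron-like cells had 530.1 CPM of Chd3 in the knockout and 303 CPM in the wild-type library (ratio 1.75, 1.69 to 1.81), and 552 and 303 CPM of Chd4 (1.82, 1.76 to 1.88). The ratio of Chd3 was 2.05 in astroglia-like, 1.86 in intermediate progenitor-like, 1.72 in interneuron-like, 1.71 in oligodendrocyte lineage-like and 1.72 in striatal projection neuron-like cells. That of Chd4 was 1.89, 1.99, 1.73, 1.77 and 1.72 in the same order. The class ratios of Chd3 lay below its ratio over all cells of 2.10, which also carries the makeup of the 2 libraries.

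Chd5 had a ratio of 1.92 (1.79 to 2.07) in excitatory neuron-like, 2.34 (2.01 to 2.73) in interneuron-like and 1.80 in oligodendrocyte lineage-like cells. Striatal projection neuron-like cells gave 1.37 (1.10 to 1.73), short of the threshold. In astroglia-like and intermediate progenitor-like cells the mean of both libraries lay under the 20 CPM filter for Chd5, at 12.3 CPM in the knockout and 6.60 CPM in the wild-type library in astroglia, and 20.5 and 7.98 CPM in intermediate progenitors.

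Counted by class, 3 of 9 members were at least 1.5-fold higher in excitatory neuron-like cells, beside 3.26% of all genes (3.74% lower), and 3 of 9 in interneuron-like cells, beside 3.11% (3.73% lower). Astroglia-like cells gave 2 of the 8 members past the filter, beside 4.48% (3.73% lower), a count that became 5 with doublets kept and 5 at a clustering resolution of 0.5. Intermediate progenitor-like cells gave 4 of 8, beside 7.81% (4.74% lower). Oligodendrocyte lineage-like cells gave 3 of 9, beside 5.78% (3.1% lower), and striatal projection neuron-like cells 3 of 9, beside 4.03% (3.4% lower). None of the members was 1.5-fold lower in these classes. Beyond Chd3, Chd4 and Chd5, the members past the threshold were Chd6 (263 CPM in the knockout and 170.2 CPM in the wild-type library, ratio 1.54) and Chd7 (575 and 370 CPM, 1.56) in intermediate progenitor-like cells, and Chd7 in striatal projection neuron-like cells (43.4 and 25.6 CPM, 1.69, 1.16 to 2.53). The striatal value of Chd7 rests on a knockout level that overlaps that of knockout erythroid-like cells, 43.8 CPM (35.9 to 52.8).

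**Figure D5:**
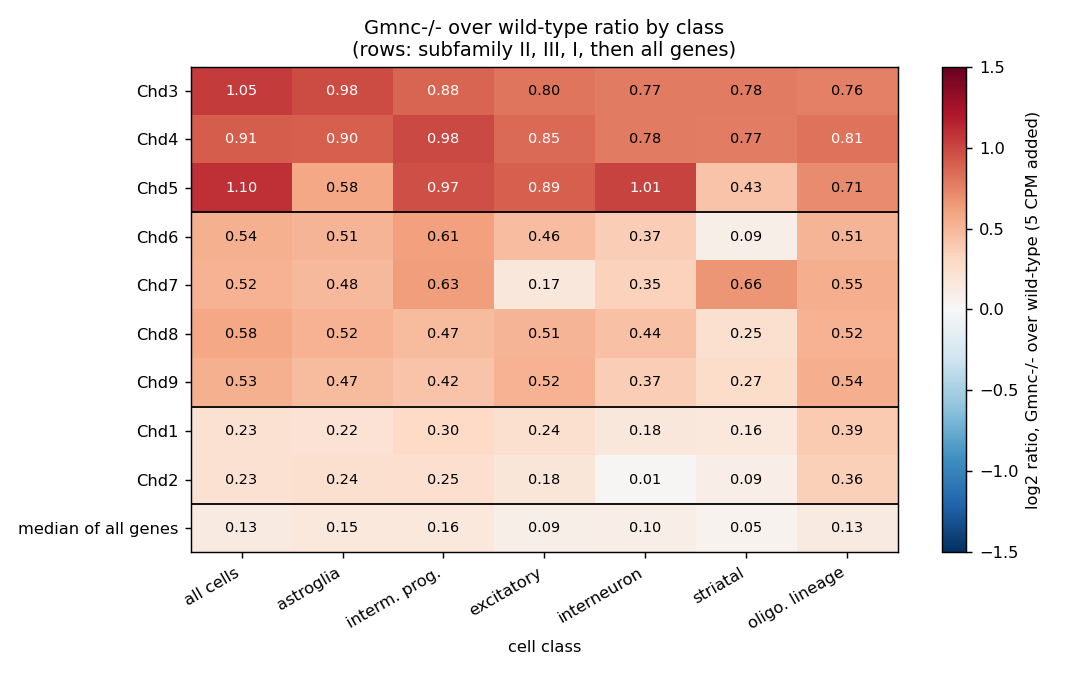
Heat map of the knockout over wild-type log2 ratio (5 CPM added to both values) of each Chd gene over all cells and in 6 neural classes, with the median of all genes in the bottom row. Chd3 and Chd4 lie at 0.76 or more in each class, and Chd2 lies at 0.01 in interneuron-like cells; the Chd5 values in astroglia-like and intermediate progenitor-like cells rest on levels under the 20 CPM filter.

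Some ratios were close to 1 in single classes. Chd2 had 198 CPM in knockout and 197 CPM in wild-type interneuron-like cells, a ratio of 1.01 (0.961 to 1.06). Chd7 in excitatory neuron-like cells had a ratio of 1.14, with an interval just above 1 (1.03 to 1.26). Its knockout level there, 45.9 CPM (43.3 to 48.7), overlaps that of knockout erythroid-like cells, 43.8 CPM (35.9 to 52.8). In maturing excitatory-like cells Chd7 had a ratio of 0.813, with an interval that includes 1 (0.608 to 1.08). Its knockout level there, 22.1 CPM, lay below the erythroid-like one. Chd5 in the same maturing cells had 2.02 (164 CPM in the knockout and 81.0 CPM in the wild-type library). In striatal projection neuron-like cells Chd6 had 1.06 (0.942 to 1.20).

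Single clusters mostly gave the same side. Of the 30 clusters with 50 or more cells in both libraries, Chd4 was higher in the knockout library in 30, Chd3 in 29, Chd6 and Chd9 in 29 each, Chd5 and Chd8 in 28 each, Chd7 in 27, and Chd1 and Chd2 in 25 each. Above the median log2 ratio of all genes in the cluster, the counts were 30 for Chd4, 29 for Chd3 and Chd9, and 28 for Chd5 and Chd6. They were 27 for Chd8, 24 for Chd7 and Chd1, and 20 for Chd2. The lowest log2 ratio of Chd4 in a cluster was 0.54. These clusters are cells of the same 2 libraries and are not replicates.

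Cells with Xist and without Y-linked UMIs, and cells with the opposite pattern, were taken to come from different animals of each pool. A single UMI was enough to set the pattern, and the split was not checked. Chd3 had a knockout over wild-type ratio of 2.05 (2.01 to 2.10) in 9194 knockout and 7073 wild-type female-pattern cells, and of 2.02 (1.94 to 2.11) in 5189 knockout and 1584 wild-type male-pattern cells. Chd4 had 1.89 and 1.82, and Chd5 2.43 (2.27 to 2.60) and 2.29 (1.99 to 2.63). Each of these 3 genes was past 1.5-fold in both patterns. Both patterns share a library, so this does not stand in for a replicate.

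Erythroid-like cells, which should hold little of these transcripts, also differed. There Chd3 had 111 CPM in the knockout and 17.8 CPM in the wild-type library (ratio 6.23, 4.37 to 9.13), Chd4 94.4 and 19.4 CPM, and Chd7 43.8 and 7.64 CPM. All 5 members past the filter were at least 1.5-fold higher in this class, and so were 53.2% of all genes. The share of cells with a UMI of Chd3, after thinning each cell to 2000 UMIs, was 18.4% (14.8 to 22.4) in knockout and 2.50% (0.923 to 5.36) in wild-type erythroid-like cells. It was 20.8% (19.4 to 22.3) in knockout and 11.4% in wild-type astroglia-like cells. The intervals of the knockout astroglia and erythroid-like shares overlap, so the knockout astroglia share of Chd3 is not read as expression, whereas the wild-type astroglia share was above that of wild-type erythroid-like cells. The part of the erythroid-like signal in the other values was not tested.

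The same shares in excitatory neuron-like cells were well above that background. Chd3 was detected in 61.9% of knockout and 42.3% of wild-type cells, Chd4 in 63.4% and 44.0%, and Chd5 in 21.4% and 11.4%, where knockout and wild-type erythroid-like cells had 9.41% and 4.17% for Chd4 and 0.471% and 0.833% for Chd5. Median depth before thinning was 3351.5 UMIs in knockout and 4304 in wild-type erythroid-like cells, and 5898.5 and 9284 in astroglia-like cells. Over all cells, Chd3 was detected in 51.5% of knockout and 32.9% of wild-type cells after thinning, and in 71.6% and 58.6% without it. Thinning left out 2840 knockout and 1818 wild-type cells that were shallower.

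Gene length moved with the ratio between the libraries. By quartile of the gene's span, the median log2 ratio of all genes was -0.18 in the shortest and 0.27 in the longest quartile. Chd3, with a span of 26.1 kb, was in the second quartile, where the median was 0.08 and 5.68% of genes were at least 1.5-fold higher. Chd1, Chd4, Chd5 and Chd8 were in the third (median 0.22), and Chd2, Chd6, Chd7 and Chd9, with spans between 115.2 and 226.2 kb, in the longest. After each log2 ratio was set against the median of its own quartile, the count of members past 1.5-fold was still 3.

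The NuRD partners were close to the middle of all genes. Over all cells none of 12 partner genes (deacetylases, histone-binding, Mta, Mbd and Gatad2 subunits) was 1.5-fold higher or lower in the knockout library, beside 5.48% of all genes higher and 5.55% lower, so nothing is read from the count. Their median log2 ratio was 0.08, beside 0.13 over all genes, and their summed level was 1186 CPM in the knockout and 1091 CPM in the wild-type library. Gatad2a, a scaffold of the complex, came closest with 91.0 CPM in the knockout and 59.4 CPM in the wild-type library (log2 ratio 0.58). Hdac1, a deacetylase, and Mta1, another subunit of the complex, had log2 ratios of -0.19 and -0.20.

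Some other remodellers were also past 1.5-fold, in small counts read beside the same 5.48% of all genes higher and 5.55% lower. Their medians stand beside 0.13 over all genes and were not set against genes of like length. Of the 22 BAF (SWI/SNF) genes past the filter, 3 were at least 1.5-fold higher in the knockout library, which were Smarcd1 (0.81), Smarcc2 (0.79) and the motor Smarca4 (0.61), and none was lower, with a median log2 ratio of 0.28. Of 9 ISWI genes, Baz1b (0.83) and Bptf (0.76) were higher, with a median of 0.46. Among 8 genes of INO80, SRCAP and other SNF2 proteins, Atrx (0.85), a heterochromatin remodeller, was higher and Ruvbl2 (-0.66), a helper ATPase, was lower, with a median of 0.23. Of the Chd4 and Chd8 partners Adnp, Pogz and Ctcf none passed 1.5-fold, with log2 ratios of 0.57, 0.42 and 0.42. Transcripts known to stay in the nucleus summed to 18972 CPM in the knockout and 15498 CPM in the wild-type library, and none of the 4 past the filter reached 1.5-fold, with Malat1 at 0.29 and Meg3 at 0.27. The part of nuclear RNA in the Chd values was not tested.

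In excitatory neuron-like over astroglia-like cells, 3 of 4 neuron-type BAF subunits were at least 1.5-fold higher in the knockout library and 2 of the 3 past the filter in the wild-type library. Actl6b had a log2 ratio of 3.26 in the knockout and 3.47 in the wild-type library and Dpf1 1.68 and 1.60, whereas Dpf3 had -0.24 and -0.49. Of 3 progenitor-type subunits 1 was at least 1.5-fold lower in each library, which was Ss18 with -1.41 and -1.30, while Actl6a had -0.35 and -0.36. In all, 10 of 23 BAF genes were at least 1.5-fold higher and 1 lower in the knockout library, beside 20.4% of all genes higher and 23.8% lower. In the wild-type library 9 of 22 were higher and 2 lower, beside 23.0% and 23.3%. The NuRD partners gave 1 higher and 3 lower of 12 in the knockout library and 2 higher and 3 lower in the wild-type library.

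Some counts may hold reads of neighbouring genes. Chd3 and Chd5 each have a neighbour on the opposite strand whose end faces their own (Chd3os and Kcnab2), and 1810026B05Rik lies over the start of Chd2 on the same strand. How reads were divided there is not given in the sources used here.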

How the data were processed

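Forebrain cells were captured with droplet 3′ chemistry version 3.1, per the labels' protocols. The deposited matrices hold UMI counts per gene and barcode, which the authors made against mm10 (Cell Ranger 7.1.0, per the submitters' processing notes). Every deposited barcode had 500 or more UMIs. Further filtering before deposit is not given in the sources used here. The members and gene lists were chosen with earlier results of these data known.

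Cells with at least 1000 UMIs and under 10% mitochondrial counts were kept, and Scrublet calls (expected rate 0.8% per 1000 barcodes) were removed. Clustering in scanpy 1.11.5 (igraph 0.11.9) used 2000 variable genes without the Chd and remodeller lists (73 genes in all), 30 components, 15 neighbours and resolution 1. Of 35 clusters, 4 stayed unnamed (8.78% of knockout and 10.9% of wild-type cells). Names came from marker lists, and the score thresholds and the gap between lists were set after seeing the data, so names may differ from those of the study. Stages followed cycling, young and maturing markers.

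Counts were summed per library and class. Log2 ratios used 5 CPM added to both values, which understates low genes, and genes with a mean of 20 CPM or more over the compared groups. Intervals were exact Poisson, Clopper-Pearson or conditional ones at 95% (SciPy 1.17.1). The calculation was tested on simulated data. No test was made, since there is 1 library per genotype. All 9 members are named, list genes as listed, and for Chd3, Chd4, Chd5 and Chd7 the 3 genes most alike over classes, ranked by the lower of both correlations, without predicted, mitochondrial, ribosomal protein and haemoglobin genes; 1 gene so chosen for Chd4 is not reported here. Gene spans came from GENCODE M21 (27645 of 27998 identifiers found) and promoters from RefSeq.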

Additional observations from a re-analysis of the deposited data

Results flagged for a closer look

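A few values ran against the rest of their gene, and none of these differences was tested. Chd2 in non-cycling interneuron-like cells had a knockout over wild-type log2 ratio of -0.0144 (ratio 0.99, 0.927 to 1.06), where it was above 0 in the other classes and stages. Chd7 in maturing excitatory-like cells had -0.25, where it was above 0 in the other classes and stages. The 2 maturing clusters differed in this. One (344 knockout and 320 wild-type cells) had 18.3 CPM in the knockout and 28.8 CPM in the wild-type library, and the other (183 and 74 cells) had 32.0 and 10.2 CPM. Both knockout values lay below the 43.8 CPM of knockout erythroid-like cells.

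Female- and male-pattern cells differed in sign for 2 values. Chd7 in excitatory neuron-like cells had -0.029 in male-pattern cells (ratio 0.978, 0.797 to 1.21) and 0.31 in female-pattern cells (1.28, 1.12 to 1.46). Chd2 in interneuron-like cells had 0.0709 in male-pattern and -0.06 in female-pattern cells.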

How the results depend on the processing

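Counts of members at least 1.5-fold higher were followed over all cells, in astroglia-like, excitatory neuron-like and interneuron-like cells, and in excitatory over astroglia-like cells. They stayed within 1.5 times their value under the alternatives in 79 cases and moved in 3. In astroglia-like cells the count of 2 became 5 with doublets kept and 5 at a clustering resolution of 0.5. In excitatory neuron-like over astroglia-like cells of the wild-type library the count of 2 became 1 with a gene filter of 50 CPM, which Chd5 does not pass. The cause of the first 2 was not tested. Over all cells the count of 3 ranged between 2 and 4. Over 14 alternatives, the log2 ratio over all cells ranged between 0.88 and 1.10 for Chd3, 0.68 and 0.92 for Chd4, 0.87 and 1.23 for Chd5, 0.01 and 0.26 for Chd1, and -0.04 and 0.26 for Chd2. Centring on genes of like length was added after seeing the data. Of the other values, 903 stayed the same and 273 moved, and no log2 ratio that passed 1.5-fold changed sign. These were single log2 ratios, shares of cells with a UMI, and counts in the other classes. Ratios and shares were held to their counting interval, and those counts to 1.5 times. In intermediate progenitor-like cells the lowest log2 ratio was 0.27 for Chd6 and 0.28 for Chd7, short of 1.5-fold. In oligodendrocyte lineage-like cells the lowest was 0.581 for Chd3, 0.54 for Chd4 and 0.48 for Chd5. In striatal projection neuron-like cells it was 0.07 for Chd7. These were also short of 1.5-fold, so the calls of these genes in these classes depended on the processing. No paired analysis was possible because the groups compared have 1 library each and share fewer than 2 replicate numbers. No library could be left out, for the same reason. Chd5 in glia, intermediate progenitors, cycling interneuron-like cells and blood cells is limited by depth.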
